A study of Mus musculus with 3 samples.

Results

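RNA of 10 genes that report on RAS-ERK signalling, several of which also restrain it, was described in mT3-2D-GFP, a mouse pancreatic tumour line, grown in mice and in culture. The genes were chosen by exact symbol: the phosphatase genes Dusp4, Dusp5 and Dusp6, the Sprouty and Spred genes Spry1, Spry2, Spry4 and Spred1, the ETS factor genes Etv4 and Etv5, and Phlda1. All 10 were present among 11886 genes, as 15 of 17910 RefSeq transcripts. The line comes from a KPC tumour of C57BL/6 origin, a genetically engineered mouse model of pancreatic ductal carcinoma, and it carries a green fluorescent protein (GFP). The 3 groups were GFP-positive cells sorted from tumours in B6.CB17-Prkdcscid/SzJ (SCID) mice, hosts without T and B cells that keep myeloid and natural killer cells, GFP-positive cells sorted from tumours in C57BL/6 (WT) mice, and the line in culture. Equal RNA amounts from 5 SCID tumours made up the SCID pool and from 6 WT tumours the WT pool, so each group is 1 library of 1 parental line, and how far single tumours differed is unknown.

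RAS proteins bound to GTP start a kinase relay through RAF and MEK to ERK, which enters the nucleus and raises the transcription of a set of genes. Several of these genes encode inhibitors of the same relay. Dual-specificity phosphatases remove the activating phosphates from ERK, while Sprouty and Spred proteins act upstream, at the receptor adaptors and at RAS and RAF. RNA of such genes is widely used as a readout of ERK output in tumours, pancreatic ductal carcinoma among them.

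All values are the authors' deposited fold changes between libraries, read as log2, for which no level in any single library was used. A gene's value is the mean over its transcripts, and a gene was called at 2-fold or more (a log2 value of 1). With 1 library per group there was no test between groups, no difference has a replicate check, and library depths are not known here. Fold changes cannot show whether a defining marker of a cell type was present, so the labelled cell type could not be checked by level. The epithelial marker list had all 9 genes measured, with medians of -0.26 in the SCID pool and -0.19 in the WT pool against the line, and members far apart on both sides of 0. Epcam stood at 1.25 in the SCID pool and 1.59 in the WT pool, and Krt7 at -1.18 in the SCID pool and -0.99 in the WT pool. In the SCID pool against the WT pool all 9 were below 0, with a median of -0.19. In sorted tumour cells, fewer cells of a type and less RNA per cell cannot be told apart.

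By gene mean, RNA of all 10 genes was higher in both tumour pools than in the cultured line. None of the 10 reached 2-fold in the deposited values, and a deposited fold may not equal a ratio of reads. By transcript 14 of 15 were above 0 in each pool, and the exception was a transcript of Spry1. In the SCID pool against the line the values ran from 0.07 to 0.99 with a median of 0.35. In the WT pool against the line they ran from 0.07 to 0.81 with a median of 0.31, or 0.14 without Spry4. The medians over all genes were -0.02 for the SCID pool and -0.01 for the WT pool. Values above 0 were held by 48.3% of all genes in the SCID pool and 48.6% in the WT pool. At 2-fold, 3.65% of all genes were higher and 2.62% lower in the SCID pool, and 4.12% were higher and 2.03% lower in the WT pool. Both comparisons use the same library of the line, so their shared direction is not 2 separate observations.

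The 10 values were uneven. At a threshold of 1.5-fold, which 11% of all genes passed upward in the SCID pool and 11.3% in the WT pool, 3 of the 10 were higher in the SCID pool (Dusp4, Dusp5 and Spry4) and 4 in the WT pool (these and Spred1). None of the 10 was lower at that threshold, which 9.43% of all genes passed downward in the SCID pool and 8.36% in the WT pool. Dusp6, Spry2, Etv5, Phlda1 and the mean of Spry1 lay below 0.3 in both pools. Over all genes, transcripts of 1 gene had a pooled SD of 0.33 in the SCID pool and 0.31 in the WT pool against the line. Those low values were thus within 1 such SD of 0, and their direction is less sure than that of Dusp4, Dusp5 and Spry4.

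**Figure D1:**
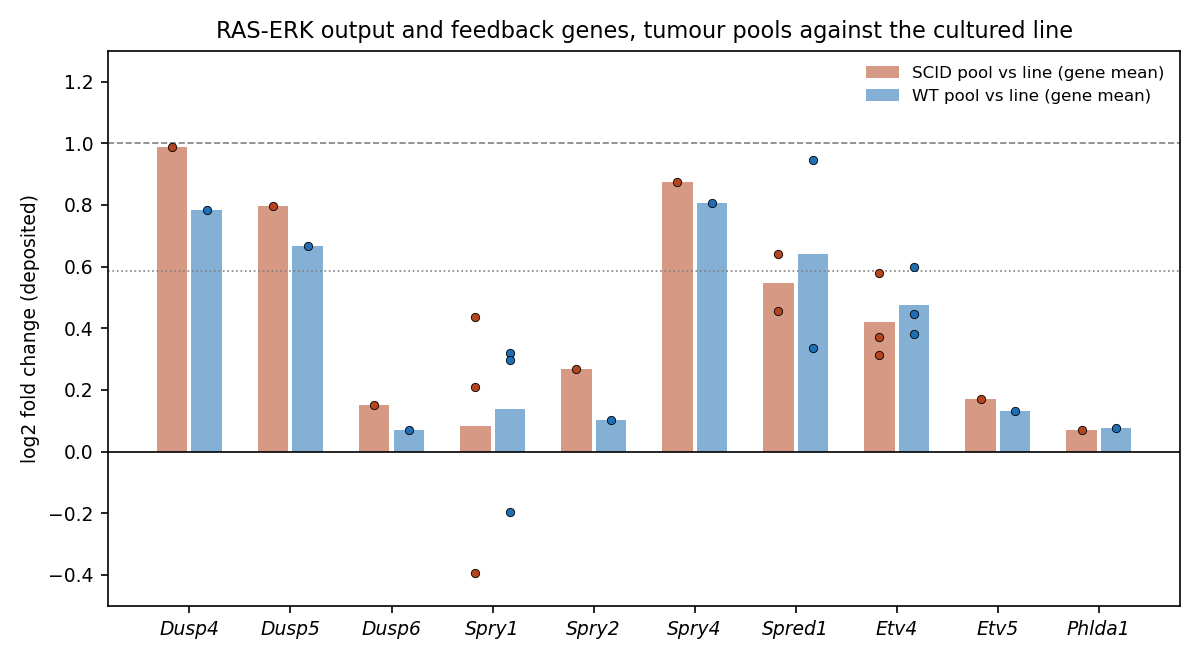
Log2 fold change (y axis) of the SCID pool and of the WT pool against the cultured line for each of the 10 genes (x axis); bars are gene means, points are single transcripts, and the dashed and dotted lines mark 2-fold and 1.5-fold. Dusp4 comes closest to 2-fold, at 0.99 in the SCID pool, and the Spry1 transcripts lie on both sides of 0.

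Among the phosphatases, Dusp4 stood at 0.99 in the SCID pool and 0.78 in the WT pool against the line. As deposited, these values are 1.98-fold in the SCID pool and 1.72-fold in the WT pool. Dusp4 encodes a nuclear phosphatase induced by ERK, and its value was at percentile 96.2 of all genes in the SCID pool and at percentile 93 in the WT pool. Dusp5, which encodes a nuclear phosphatase selective for ERK that also holds it in the nucleus, stood at 0.79 in the SCID pool and 0.67 in the WT pool. Dusp6 encodes the cytoplasmic ERK-selective phosphatase and is often taken as a marker of ERK output. It was at 0.15 in the SCID pool and 0.07 in the WT pool, at percentiles 65.3 in the SCID pool and 58.4 in the WT pool. Dusp4 and Dusp5 had values well above that of Dusp6 in both pools. Each of these genes had 1 transcript: Dusp4 on chromosome 8 with the deposited start at 34807610 and stop at 34819895, Dusp5 on chromosome 19 from 53529318 to 53541323, and Dusp6 on chromosome 10 from 99263231 to 99267490, all on the forward strand and all, like the positions below, as deposited, in coordinates that match GRCm38. The deposited span of Dusp5 starts at the first coding base of the matching GENCODE transcript, which itself starts at 53529109.

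The upstream sequences of Dusp5 and Dusp6 are shown because these related ERK phosphatases, a pair chosen after their high and low values were seen, differ in a motif read by serum response factor, a transcription factor that works with ERK-phosphorylated ETS partners. Each is the 250 bases before the RefSeq start on GRCm38.p6, forward strand, with matches to the CArG box in capitals. The windows are chr19:53528895-53529144 for Dusp5 and chr10:99262981-99263230 for Dusp6.
Dusp5: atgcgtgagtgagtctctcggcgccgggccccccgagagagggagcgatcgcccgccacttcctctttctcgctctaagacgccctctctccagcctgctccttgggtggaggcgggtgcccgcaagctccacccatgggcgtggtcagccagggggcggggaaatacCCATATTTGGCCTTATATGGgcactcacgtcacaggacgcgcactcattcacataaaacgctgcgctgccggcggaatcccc
Dusp6: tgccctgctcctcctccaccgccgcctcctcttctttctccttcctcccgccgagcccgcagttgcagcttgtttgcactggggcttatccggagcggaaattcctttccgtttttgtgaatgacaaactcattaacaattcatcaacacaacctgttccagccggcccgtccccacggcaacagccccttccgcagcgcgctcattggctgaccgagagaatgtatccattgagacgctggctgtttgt
The Dusp5 window held 2 CArG boxes directly next to each other. They lie from 82 to 73 and from 72 to 63 bases before the RefSeq start. That start directly follows 53529144, between the GENCODE start at 53529109 and the deposited start at 53529318. The end of the Dusp5 window therefore lies inside the GENCODE transcript, and the boxes lie fewer bases before the GENCODE start. The windows of Dusp6, Spry1, Spry2, Etv5 and also Spred1, which passed 1.5-fold in the WT pool, held none. Of 32851 promoter windows of the same length, 1.47% held a CArG box and 6 held 2 or more. Promoters were matched for these 6 of the 10 genes (7 windows, with a pair for Etv5), and not for Dusp4, Spry4, Etv4 and Phlda1. On both strands, none of the 7 windows held TGANTCA, TGACGTCA (the cyclic AMP response element) or CCGGAAGT (an ETS site). Of all windows, 6.75%, 1.55% and 2.88% held these strings, in this order. TGANTCA allows any base at N and so is wider than the AP-1 site. A match is a string of letters and was not tested as a site.

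Other phosphatases of the same family were grouped by textbook location and substrate after the values were seen. Of the nuclear inducible group, Dusp1 stood at 1.93 in the SCID pool and 1.87 in the WT pool, and Dusp2 had no value. Of the cytoplasmic ERK-selective group, Dusp7 stood at 0.04 in the SCID pool and 0.07 in the WT pool and Dusp9 at 0.13 in the SCID pool and 0.07 in the WT pool, so the 3 genes with Dusp6 all lay below 0.2. The group directed at JNK and p38 also lay above these 3, with Dusp8 at 0.93 in the SCID pool and 0.60 in the WT pool, Dusp16 at 0.91 in the SCID pool and 0.57 in the WT pool, and Dusp10 at 1.08 in the SCID pool and 0.90 in the WT pool. The whole list of other dual-specificity phosphatases had 14 of 20 genes measured, with 7 above 0 in each pool and medians of -0.0016 in the SCID pool and -0.02 in the WT pool. Of these 14, 2 were higher by 2-fold in the SCID pool (Dusp1 and Dusp10) and 1 in the WT pool (Dusp1), and 0 were lower in either pool.

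Sprouty genes, whose products are induced by receptor signalling and block the step to RAS and RAF, differed from one another. Spry4 stood at 0.87 in the SCID pool and 0.81 in the WT pool against the line, at percentiles 95 in the SCID pool and 93.5 in the WT pool of all genes, and in the WT pool it was the highest of the 10. Spry2, on chromosome 14 from 105891947 to 105896820 on the reverse strand, was at 0.27 in the SCID pool and 0.10 in the WT pool. Each of these genes had 1 transcript, and Spry4 lay above Spry2 by more than 0.5 in both pools.

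Spry1 could not be placed, because its 3 transcripts disagreed. NM_011896 was at 0.44 in the SCID pool and 0.30 in the WT pool, NM_001305442 at 0.21 in the SCID pool and 0.32 in the WT pool, and NM_001305441 at -0.39 in the SCID pool and -0.20 in the WT pool. All 3 have the same deposited span on chromosome 3, from 37639947 to 37644600 on the forward strand, and in GENCODE the same 939 coding bases. GENCODE pairs NM_011896 and NM_001305441 with 1 transcript, and that transcript differs from the match of NM_001305442 only in the first exon, by 41 bases held alone and 11 bases missing. The range across the 3 values was 0.83 in the SCID pool, at percentile 82.6 of the 805 genes with 3 transcripts, whose median range was 0.42. In the WT pool the range was 0.52, at percentile 64.5. The mean of 0.08 in the SCID pool and 0.14 in the WT pool is smaller than this range, and how reads shared by the 3 were assigned is not given in the sources used here.

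Spred1 encodes a membrane-bound relative of Sprouty that brings neurofibromin, a RAS inactivator, to RAS. Its mean stood at 0.55 in the SCID pool and 0.64 in the WT pool, but its 2 transcripts ranked the pools differently. The shorter transcript, NM_001277256, was at 0.64 in the SCID pool and 0.95 in the WT pool. The full transcript, NM_033524, was at 0.46 in the SCID pool and 0.34 in the WT pool. Both start at 117121071 on chromosome 2, forward strand, with deposited stops at 117172854 and 117182278. In GENCODE they share 672 exon bases, the shorter one has 5 exons and the full one 7, and the shorter one reads on past the splice site of its last shared exon for 768 bases, of which 102 are coding. In place of this tail the full transcript has 747 coding bases of its own. The tail is shown because it is what sets the transcript with the highest WT value apart. The 102 coding bases, from GENCODE on GRCm38, forward strand, chr2:117172087-117172188, are in capitals after the last 12 bases both transcripts share.
Spred1 NM_001277256: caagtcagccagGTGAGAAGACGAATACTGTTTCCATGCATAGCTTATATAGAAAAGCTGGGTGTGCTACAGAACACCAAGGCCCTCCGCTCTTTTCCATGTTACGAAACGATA

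Within the Spred family Spred2 was close to Spred1 and Spred3 was higher. Spred2 stood at 0.50 in the SCID pool and 0.54 in the WT pool. Spred3 passed 2-fold in both, at 1.51 in the SCID pool and 1.28 in the WT pool. Spry3, the remaining Sprouty gene, had no value.

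The ETS factor genes Etv4 and Etv5 belong to the PEA3 group, whose transcription follows receptor and ERK signalling closely. Etv4 stood at 0.42 in the SCID pool and 0.48 in the WT pool, and Etv5 at 0.17 in the SCID pool and 0.13 in the WT pool. Etv5 had 1 transcript, on chromosome 16 from 22381313 to 22439571 on the reverse strand. The 3 Etv4 transcripts share the deposited span from 101769748 to 101785311 on chromosome 11, reverse strand, and all were above 0. NM_001316366 was at 0.58 in the SCID pool and 0.60 in the WT pool, NM_001316365 at 0.37 in the SCID pool and 0.45 in the WT pool, and NM_008815 at 0.31 in the SCID pool and 0.38 in the WT pool. The order of the 3 was the same in both pools, over a range of 0.27 in the SCID pool and 0.22 in the WT pool, both narrower than the median of 0.42 in the SCID pool and 0.38 in the WT pool for genes with 3 transcripts. The transcript with the highest value lacks 18 coding bases of NM_001316365, at chr11:101774228-101774245 on GRCm38. They are shown in capitals, on the reverse strand, with 12 flanking coding bases on each side, as the only difference between these transcripts.
Etv4 NM_001316365: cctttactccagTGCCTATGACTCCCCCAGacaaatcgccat

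**Figure D2:**
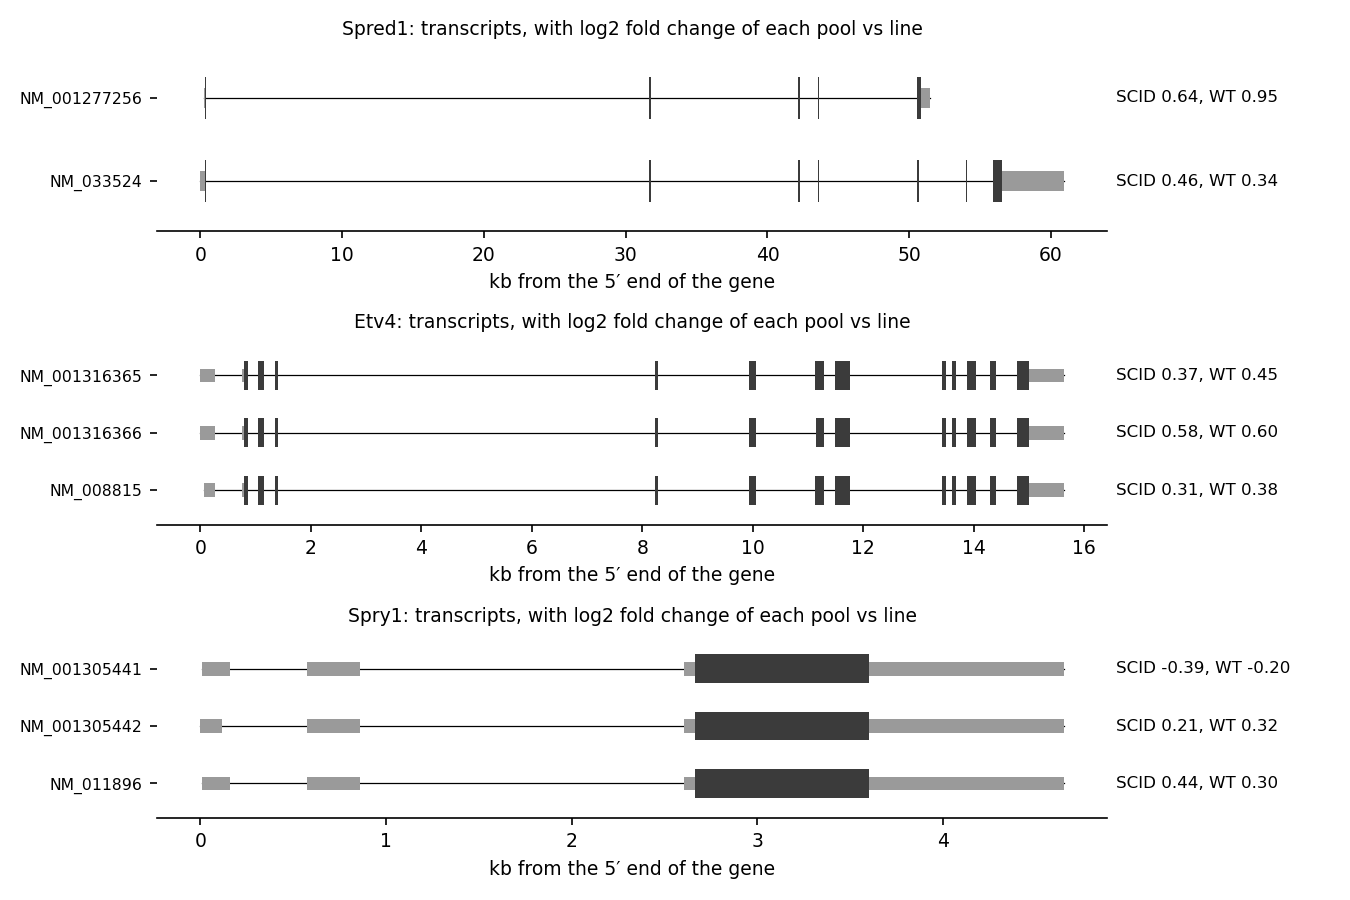
Exons (boxes, coding parts dark and tall) of the transcripts of Spred1, Etv4 and Spry1 against distance from the 5′ end of the gene in kb, with the log2 fold change of the SCID pool and of the WT pool against the line at the right. The shorter Spred1 transcript, at 0.64 in the SCID pool and 0.95 in the WT pool, ends before the last 2 exons of the full one. For Spry1, NM_001305441 and NM_011896 have the same GENCODE match and the same exons, and NM_001305442 differs from them only near the start.

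Phlda1 encodes a protein with a pleckstrin-homology-like domain that is induced by growth factor signalling. It was the lowest of the 10 in the SCID pool at 0.07 and stood at 0.08 in the WT pool, at percentiles 58.3 in the SCID pool and 58.9 in the WT pool of all genes. Its 1 transcript lies on chromosome 10 from 111506286 to 111508650 on the forward strand. Its relatives Phlda2 and Phlda3 were on the other side of 0. Phlda2 stood at -0.94 in the SCID pool and -0.98 in the WT pool, and Phlda3 at -0.33 in the SCID pool and -0.36 in the WT pool.

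**Figure D3:**
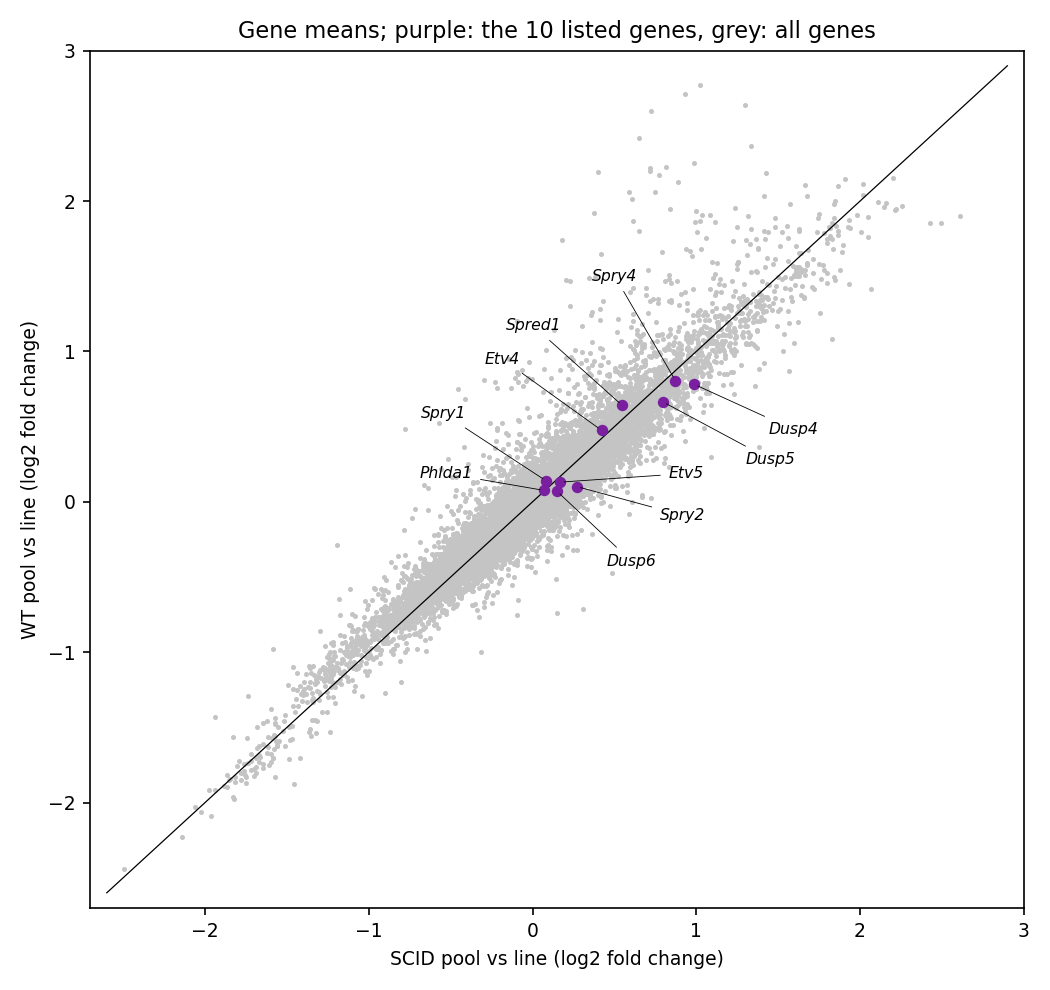
Gene means of the SCID pool (x axis) and of the WT pool (y axis) against the cultured line, both as log2 fold change, for all 11886 genes (grey) and the 10 listed genes (purple), with the line of equal values. All 10 lie above 0 on both axes, and Dusp4 and Spry2 lie farthest below the line of equal values.

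Between the tumour pools the 10 genes differed little. In the SCID pool against the WT pool the values ran from -0.09 to 0.20, with 6 of 10 above 0, against 48.5% of all genes, and a median of 0.05, against -0.0044 over all genes. None of the 10 was called, at 2-fold or at 1.5-fold. At 2-fold 0.0168% of all genes were higher and 0.303% lower in the SCID pool, and at 1.5-fold 0.177% were higher and 1.1% lower. The range from percentile 5 to percentile 95 of all genes ran from -0.26 to 0.21, and all 10 gene means lay inside it.

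Dusp4 was the highest of the 10 in this comparison at 0.20 (1.15-fold, percentile 94.5), followed by Spry2 at 0.17 (percentile 91.4), Dusp5 at 0.13 (percentile 86.7) and Dusp6 at 0.08. All 3 phosphatases were above 0. Spry4 was at 0.07, Etv5 at 0.04 and Phlda1 at -0.0049. Farther below 0 were Etv4 at -0.05, Spry1 at -0.06 and Spred1 at -0.09, the 3 genes with more than 1 transcript.

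Etv4 was below 0 in each of its transcripts, from -0.08 to -0.02. Spry1 transcripts ran from -0.20 to 0.14. The Spred1 transcripts were at -0.31 for the shorter and 0.12 for the full one, a gap of 0.43, at percentile 83.5 of the 2214 genes with 2 transcripts. Over all genes, transcripts of 1 gene had a pooled SD of 0.22 in this comparison, so every gene mean of the 10 was within 1 such SD of 0. This SD describes transcripts and not animals.

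The SCID to WT values moved with base composition over all transcripts. Over 16694 transcripts with a GENCODE match, which share the libraries and are not independent, the Spearman correlation of this comparison with GC content was -0.317, and GC content and length together accounted for 7.01% of its variance. The 15 transcripts of the 10 genes had a median GC content of 56.1%, from 41.2% in Spred1 to 58.9% in Phlda1, against 50.6% over all. After removal of this trend, 8 of the 10 were above 0 in the SCID pool against the WT pool with a median of 0.08. Over all genes, 49% were then above 0, with a median of -0.0028. Etv4 then stood at 0.006 and Phlda1 at 0.05, while Spred1 was at -0.18 and Spry1 at -0.0028.

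**Figure D4:**
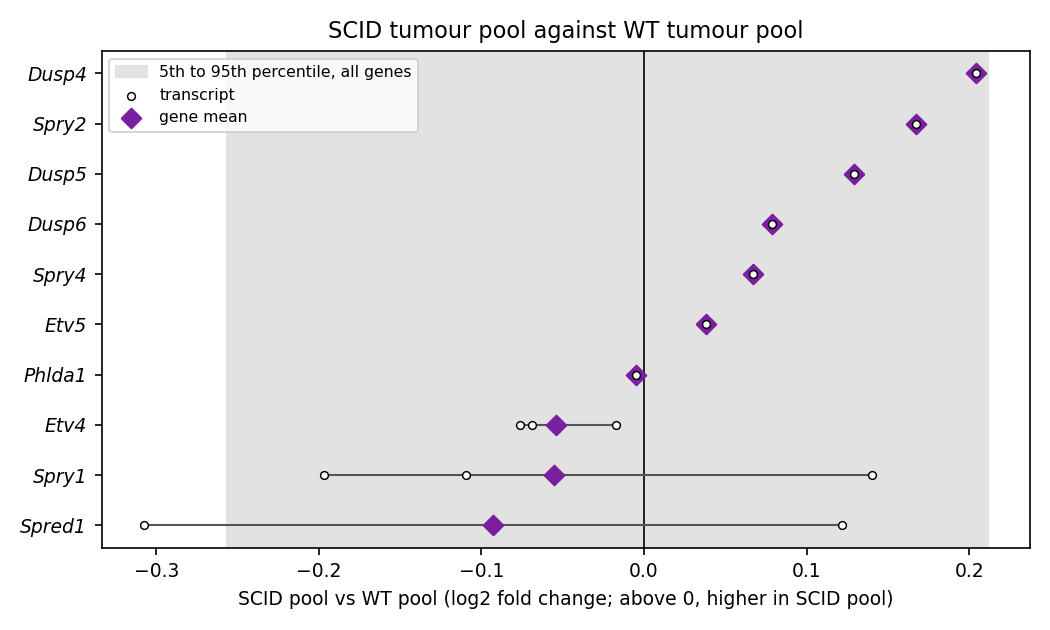
Log2 fold change of the SCID pool against the WT pool (x axis) for the 10 genes in order of value; diamonds are gene means, open circles single transcripts, and the grey band runs from percentile 5 to percentile 95 of all genes. The gene means lie between -0.09 and 0.20, inside the band, and the shorter Spred1 transcript at -0.31 lies outside it.

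The rest of the pathway was read from 9 lists of genes other than the 10, ordered from ligand to target. Of the ligands 13 of 23 had a value, with 11 above 0 in the SCID pool and 10 in the WT pool against the line. Pdgfa, a platelet-derived growth factor chain, was the single one higher by 2-fold, at 1.58 in the SCID pool and 1.49 in the WT pool. Fgf2, a fibroblast growth factor, was just short of it at 0.95 in the SCID pool and 0.97 in the WT pool. Of 12 measured receptor tyrosine kinases none passed 2-fold in either direction, and the medians were 0.01 in the SCID pool and 0.09 in the WT pool. Insr, the insulin receptor, was highest at 0.61 in the SCID pool and 0.56 in the WT pool, and Fgfr4 lowest at -0.56 in the SCID pool and -0.55 in the WT pool.

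Among 18 measured adaptors and RAS regulators, 15 were above 0 in the SCID pool and 14 in the WT pool, with medians of 0.24 in the SCID pool and 0.25 in the WT pool. Gab1, a docking protein that carries receptor signals to RAS, was at 0.84 in the SCID pool and passed 2-fold in the WT pool at 1.02. Among the negative regulators, Cblb, a ubiquitin ligase that acts on activated receptors, was at 0.94 in the SCID pool and 0.87 in the WT pool. Rasa1 and Nf1 speed GTP hydrolysis by RAS. Rasa1 was at 0.71 in the SCID pool and 0.57 in the WT pool, and Nf1 was at 0.62 in the SCID pool and 0.52 in the WT pool. These 3 were picked after their values were seen.

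The relay itself stood close to 0. Of 19 measured RAS, RAF, MEK and ERK genes, 9 were above 0 in the SCID pool and 11 in the WT pool, with medians of -0.00067 in the SCID pool and 0.03 in the WT pool. Rras2, a RAS relative, was the 1 gene lower by 2-fold, at -1.10 in each pool. Its relative Mras was at 0.91 in the SCID pool and 0.98 in the WT pool. The kinases that ERK phosphorylates had 7 of 7 genes measured, none past 2-fold, and medians of 0.06 in the SCID pool and 0.17 in the WT pool, with Rps6ka1 at -0.53 in the SCID pool and -0.24 in the WT pool and Rps6ka4 at -0.53 in the SCID pool and -0.42 in the WT pool.

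The list of other feedback genes reached higher values than any of the 10. Of 11 measured, 7 were above 0 in each pool, 3 were higher by 2-fold in each pool and none was lower, with medians of 0.50 in the SCID pool and 0.36 in the WT pool. Besides Spred3, these were Rgs2, a regulator of G protein signalling, at 2.16 in the SCID pool and 1.99 in the WT pool, and Il17rd, which encodes the Sef inhibitor of fibroblast growth factor signalling, at 1.66 in the SCID pool and 1.35 in the WT pool. Below 0 in each pool were 4 genes, Pebp1, Lrig1, Socs4 and Errfi1, with Pebp1 lowest at -0.44 in the SCID pool and -0.36 in the WT pool. Of all genes, 48.3% were above 0 in the SCID pool and 48.6% in the WT pool, and 3.65% and 4.12% were higher by 2-fold. In the SCID pool against the WT pool Il17rd was at 0.30 and Spred3 at 0.23.

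Other ETS factors had 14 of 19 genes measured, none past 2-fold, and medians of 0.21 in the SCID pool and 0.22 in the WT pool. Ets1 was highest at 0.95 in the SCID pool and 0.83 in the WT pool, with Ehf, an epithelial ETS factor, at 0.73 in the SCID pool and 0.75 in the WT pool. Of 25 measured ERK-responsive targets, 16 were above 0 in each pool, 6 were higher by 2-fold in each and none was lower, with medians of 0.29 in the SCID pool and 0.31 in the WT pool. Highest were the immediate-early factors Fosb at 2.15 in the SCID pool and 1.96 in the WT pool, Fos at 2.05 in the SCID pool and 1.89 in the WT pool and Egr1 at 1.89 in the SCID pool and 1.66 in the WT pool. Trib1 followed at 1.37 in the SCID pool and 1.14 in the WT pool. The other 9 were below 0 in the SCID pool, and 9 were below 0 in the WT pool. Ccnd1, the cyclin D1 gene, was at -0.48 in the SCID pool and -0.43 in the WT pool. At 1.5-fold 3 were lower in each pool, and 8 were higher in the SCID pool and 9 in the WT pool. The 3 lower were Phlda2, given above, Cdc25a at -0.75 in the SCID pool and -0.70 in the WT pool, and Odc1 at -0.63 and -0.69.

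**Figure D5:**
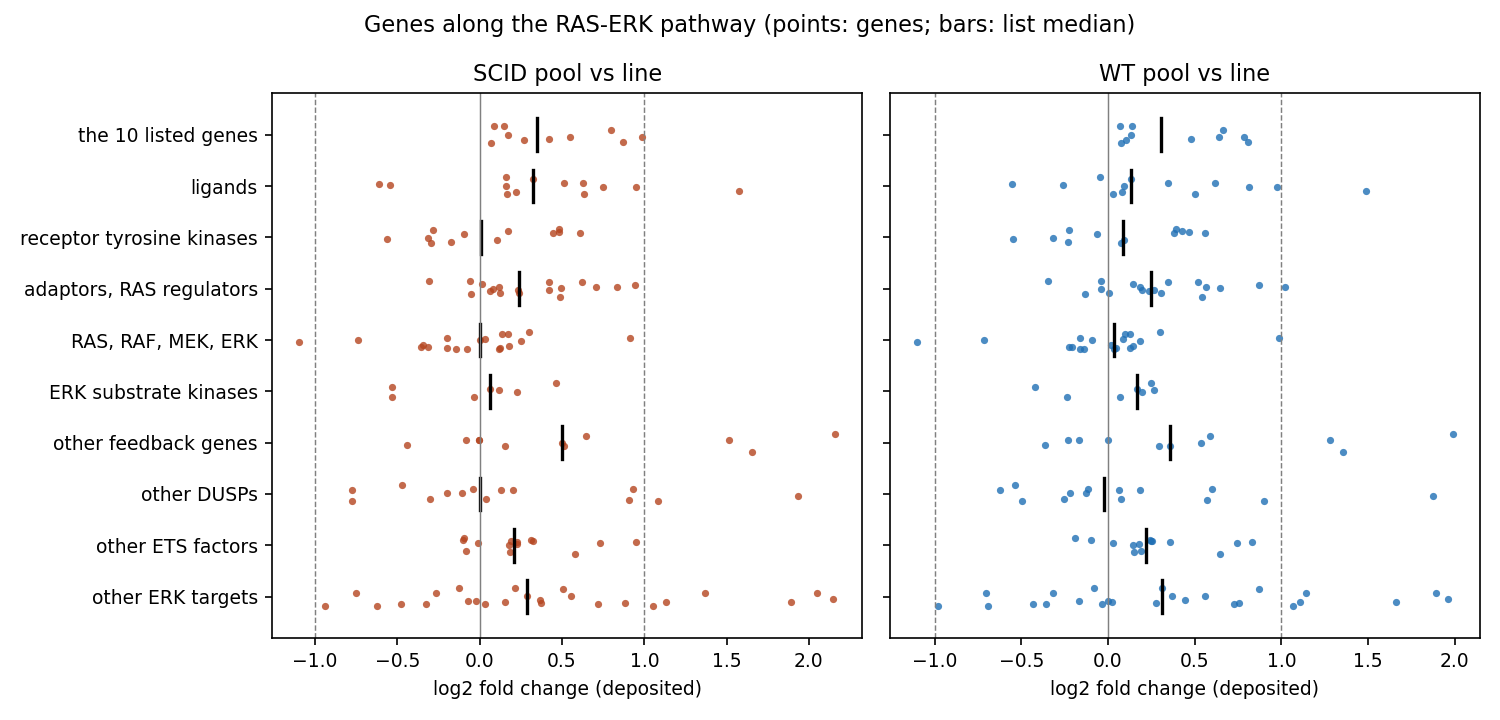
Log2 fold change against the cultured line (x axis) of each measured gene (points) in the 10 listed genes and 9 further lists (rows), with the list median as a bar and dashed lines at 2-fold, for the SCID pool at the left and the WT pool at the right. The relay from RAS to ERK centres near 0, and the list of other feedback genes has the highest median in each pool, 0.50 in the SCID pool and 0.36 in the WT pool.

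Other gene groups also differed between the tumour pools and the line, in either direction. Immediate-early and dissociation genes had 18 of 20 measured, all above 0 in both pools, with 13 higher by 2-fold in each and medians of 1.65 in the SCID pool and 1.67 in the WT pool. The measured genes of this list include Fos, Fosb, Egr1, Ier2, Ier3, Rgs2 and Dusp1, which are also in the lists above. The tumour cells were sorted from tissue and the labels name no such step for the line, so growth in a tumour and sample handling cannot be told apart. Proliferation genes were lower, with 8 of 8 below 0 in both pools and 6 past 2-fold in each.

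Markers of host cells were measured in small part. Macrophage markers had 4 of 14 genes measured, with medians of 0.70 in the SCID pool and 1.73 in the WT pool against the line, and of -1.04 in the SCID pool against the WT pool, where all 4 were below 0. Fibroblast markers had 3 of 11 measured, with medians of 1.61 in the SCID pool and 1.55 in the WT pool against the line, and endothelial markers 2 of 8, with 1.21 in the SCID pool and 1.37 in the WT pool. The 2 of 8 T cell markers measured had medians of 0.23 in the SCID pool and 0.22 in the WT pool. The part of host cells, of dissociation and of proliferation in the values of the 10 genes was not tested.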

How the data were processed

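RNA of sorted tumour cells and of the cultured line was made into stranded poly(A) libraries and read as pairs of 75 bases, per the labels' protocols; the depth of each of the 3 libraries is not known here. The authors' deposited table gives log2 fold changes per RefSeq transcript; its header names no log base, and log2 was read from DESeq2 1.20.0 in the submitters' processing notes, which also list BWA, Partek, R 3.5.1 and mm9 with no role. How the values were fitted, shrunk or filtered is not given in the sources used here. They ran from -2.49 to 2.77, a narrow range, so a deposited fold may not equal a ratio of reads.

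The third column, named only for SCID, equalled the first minus the second in all 17910 transcripts within 1e-12 and was read as SCID against WT. Deposited coordinates were set against RefSeq genes of GRCm38.p6: of 17486 transcripts 99.9% matched in chromosome and 85.9% had a start no more than 1000 bases away, so they were read as GRCm38 although the notes name mm9. Starts and stops are printed as deposited; the stop was 1 above the gene's end in 9076 transcripts.

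Gene values are transcript means (8288 genes have 1 transcript), computed with pandas 2.3.3. The trend in GC content and log10 length was a quadratic fit over transcripts, tested on simulated data. Named genes in the lists were, per list, up to 4 past 2-fold in any comparison or else the 2 farthest from 0; others were named after their values were seen. The genes and lists were chosen with earlier results of these data known. No amino acid sequence was used here, so the planned protein comparison was not made.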

Additional observations from a re-analysis of the deposited data

How the results depend on the processing

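The count of genes past 2-fold was 0 of 10 in all 3 comparisons. At 1.5-fold it was 3 in the SCID pool against the line and 4 in the WT pool against the line, and 0 in the SCID pool against the WT pool. With the median of all genes subtracted it was 1 (Dusp4) in the SCID pool against the line. It stayed at 0 at 4-fold, with each transcript counted alone, with the median transcript, the transcript farthest from 0 or coding transcripts, and after the GC and length trend was removed. The median in the WT pool against the line was 0.14 without Spry4; the other alternatives moved no list median by more than 1.5 times, and the number of genes above 0 stayed at 10 of 10 against the line in each. Single genes moved by over 1.5 times or crossed 0 in 9 of 30 values after the trend was removed, in 4 with the transcript farthest from 0, in 3 with the median transcript and in 1 with the median gene subtracted; the cause was not tested. Spry1 was at 0.21 in the SCID pool and 0.30 in the WT pool with the median transcript. No paired analysis was possible because each group has 1 library. With no counts and no replicates, differences of the size seen between the tumour pools cannot be set against any error.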

Other observations

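Phosphatases directed at JNK and p38, relatives of ERK in stress-activated relays, were grouped after the values were seen. In the SCID pool against the WT pool Dusp8 was at 0.33, Dusp16 at 0.33 and Dusp10 at 0.19, and the first 2 were the highest of the 14 other dual-specificity phosphatases measured. At the low end of that list, Dusp22 stood at -0.78 in the SCID pool and -0.62 in the WT pool against the line, and Dusp3 at -0.78 in the SCID pool and -0.49 in the WT pool. Dusp22 and Dusp16 are means of 2 transcripts. Against the line, those of Dusp22 ran from -1.18 to -0.37 in the SCID pool and from -1.10 to -0.14 in the WT pool. Those of Dusp16 ran from 0.79 to 1.02 in the SCID pool and from 0.27 to 0.87 in the WT pool.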
